A study of Gallus gallus with 16 samples.

Results

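A set of 6 genes of tryptophan and lysine breakdown and of a related aminotransferase was followed in chicken liver: AFMID, KYNU, HAAO, AADAT, AASS and AGXT2. They were chosen by symbol, and for each gene the array feature with exactly that symbol in the platform annotation was taken. Each of the 6 genes had 1 such feature, out of 11528 genes with a single symbol and 20804 features in all. The livers were taken at day 21 from 16 male broilers (Gallus gallus, chickens bred for meat), with 4 birds on each of 4 diets that the labels call A, E, F and H. The series title names saponins and a blend of essential oils from oregano, thyme, rosemary and star anise, and asks by which molecular routes they may act on performance and on ileal protein digestibility. Which letter means which additive, or plain feed, is not in the labels, and differences from diet A are given only because A is the first letter. No strain, genotype or individual bird identity beyond the diet is given, and each array was taken as 1 bird.

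Tryptophan is broken down in liver mainly by the kynurenine pathway. Its first step opens the indole ring to give formylkynurenine, and AFMID, the arylformamidase, removes the formyl group to give kynurenine. KYNU, kynureninase, cleaves kynurenine and hydroxykynurenine and uses the vitamin B6 coenzyme pyridoxal phosphate. HAAO, an iron-dependent dioxygenase, opens the ring of hydroxyanthranilate, which leads towards quinolinate and the nicotinamide coenzyme NAD. AADAT is an aminotransferase that converts kynurenine to kynurenic acid and also acts on alpha-aminoadipate, an intermediate of lysine breakdown. AASS, the bifunctional aminoadipate semialdehyde synthase, carries out the first steps of lysine breakdown in mitochondria. AGXT2 is a mitochondrial alanine-glyoxylate aminotransferase, known in mammals also for handling beta-aminoisobutyrate and dimethylarginines.

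All values are log2 signals of 1-colour arrays, so a step of 1 means a 2-fold ratio of signals. A feature was called when its adjusted p in limma, with Benjamini-Hochberg adjustment over all 20804 features, was under 0.05. Array medians lay between 6.11 and 6.21. The 6 genes lay above the 20th percentile of all values (4.31) in each of the 16 birds. Signals of different genes depend on their probes and are not set against each other here. Of 12 listed hepatocyte markers 9 were measured, and 9 of 9 lay above the 20th percentile, with gene means from 5.03 to 13.87. Among them ALB (albumin) read between 13.67 and 13.97 and TTR (transthyretin) between 13.44 and 13.67. In whole liver, fewer cells of a type and less RNA per cell cannot be told apart.

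Over all features, 2 arrays of diet H (replicates 3 and 4) were unlike the rest. Their mean correlation with the other 15 arrays was 0.948 and 0.946, against 0.966 to 0.976 in the other 14 birds. They also had the highest scores, 68.9 and 73.2, on the first principal component (43.1% of the variance). Differences of the 6 genes that involve diet H are therefore also given without them, as are the pathway medians and named pathway genes below. Diet H then rests on 2 birds, replicates 1 and 2. Replicate 2 lay at the other end, with the lowest score of all arrays on this component, -45.8. It also had the lowest array quality weight in limma, 0.29. Values without replicates 3 and 4 are therefore no cleaner measure of diet H. The sample titles carry numbers of unstated meaning, which run up to 25 for replicates 1 and 2 of each diet and above 25 for replicates 3 and 4. These are called here the lower and the upper title block.

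No call was made for any of the 6 genes between diets. In each of the 6 pairwise comparisons limma called 0 of 20804 features (0.00%) at an adjusted p under 0.05, and the F test over the 4 diets also called 0 (0.00%). At an unadjusted p under 0.05 the counts were 423 features (2.03%) for diet E minus A, 349 (1.68%) for F minus A, 1708 (8.21%) for H minus A, 281 (1.35%) for F minus E, 566 (2.72%) for H minus E, 540 (2.60%) for H minus F and 444 (2.13%) for the F test. The differences below are given as values with their 95% intervals, not as changes.

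AGXT2 had the smallest p of the 6 genes in the F test over the diets (rank 119 of all features, adjusted p = 0.984), with its highest mean in diet E and its lowest in diet H. In diet E the birds read 8.56, 8.40, 8.56 and 8.94. In diet A they read 8.32, 7.57, 8.17 and 8.85, and in diet F 7.95, 8.40, 8.06 and 7.62. In diet H they read 7.91, 8.16, 7.07 and 7.42. All 4 birds of diet E lay above all birds of diets F and H, while diet A overlapped with each of the others. The gap to diet F was narrow, with a lowest diet E bird at 8.4034 and a highest diet F bird at 8.4021. The diet means of AGXT2 were 8.61 ± 0.23 (SD, n = 4) in E, 8.23 ± 0.53 in A, 8.01 ± 0.32 in F and 7.64 ± 0.49 in H. Diet H minus E was -0.98 ± 0.27 (SE), a 1.97-fold lower signal with a 95% interval of -1.55 to -0.40, which ranked 13th by p of all features and stood at adjusted p = 0.942. Features with diet H below diet E in all birds made up 0.404% of the array. Diet F minus E was -0.61 ± 0.27 (-1.18 to -0.03, adjusted p = 1), and features with diet F below diet E in all birds made up 0.538%. Diet H minus A was -0.59 ± 0.27 (-1.16 to -0.02, adjusted p = 0.521) and diet E minus A 0.39 ± 0.27 (-0.18 to 0.96, adjusted p = 1). The diets accounted for 49.98% of the variance of AGXT2 over the 16 birds, against a median of 16.97% over all genes. Without diet H replicates 3 and 4 these shares were 39.4% and 19.48%. AGXT2 did not have the highest share then. AFMID had 45.86% over the 16 birds and 56.77% without these 2 arrays, and KYNU had 26.8% and 42.54%. HAAO, AASS and AADAT had 12.46%, 16.91% and 26.77% without them.

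The low end of AGXT2 in diet H came from replicates 3 and 4. Without these 2 arrays diet H minus E was -0.58 (adjusted p = 0.878), diet H minus A -0.20 (adjusted p = 1) and diet H minus F 0.02. The 2 remaining diet H birds, at 7.91 and 8.16, lay below the 4 diet E birds, as any of the diet H birds must, given no overlap over all birds. The share of all features with these 2 birds below the 4 diet E birds was not computed. Within the lower title block diet H minus E was -0.45 and within the upper block -1.50, while diet F minus E was -0.30 and -0.91. The signs of these block differences were likewise fixed by the lack of overlap with diet E. Diet E minus A was 0.53 in the lower and 0.24 in the upper block.

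AFMID, the arylformamidase, was the only one of the 6 genes with a higher mean in diet H than in diet E, and its lowest mean was in diet A. Its signals were 7.60, 7.20, 7.52 and 7.48 in diet A and 8.23, 7.77, 7.72 and 8.17 in diet E. They were 7.71, 7.58, 7.99 and 7.77 in diet F and 7.82, 7.56, 8.59 and 8.70 in diet H. The 4 birds of diet E lay above the 4 of diet A with no overlap, 3 of 4 diet F birds lay above all diet A birds, and so did 3 of 4 diet H birds. Diet E minus A was 0.52 ± 0.23 (SE, 95% interval 0.038 to 1.004, 1.44-fold) at adjusted p = 1, and 1.49% of all features had diet E above diet A without overlap. For the other 2 diets, which overlapped with diet A by 1 bird, the shares of all features fully above diet A were 1.18% for diet F and 1.27% for diet H. The shares with 3 of 4 birds above all diet A birds were not computed. Diet F minus A was 0.31 ± 0.23 (-0.17 to 0.79, adjusted p = 0.993). Diet H minus A was 0.72 ± 0.23 (0.23 to 1.20, 1.64-fold, adjusted p = 0.521) with all birds and 0.24 (adjusted p = 1) without diet H replicates 3 and 4. The difference between diets E and A was 0.60 in the lower and 0.44 in the upper title block. Since the birds of these diets did not overlap, its sign could not differ between the blocks. Against diets E and F the sign for diet H turned without the 2 arrays, from 0.20 to -0.28 for H minus E and from 0.40 to -0.071 for H minus F. Diet H overlapped with diet E for AFMID, and 0.630% of all features had diet H fully above diet E.

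**Figure D1:**
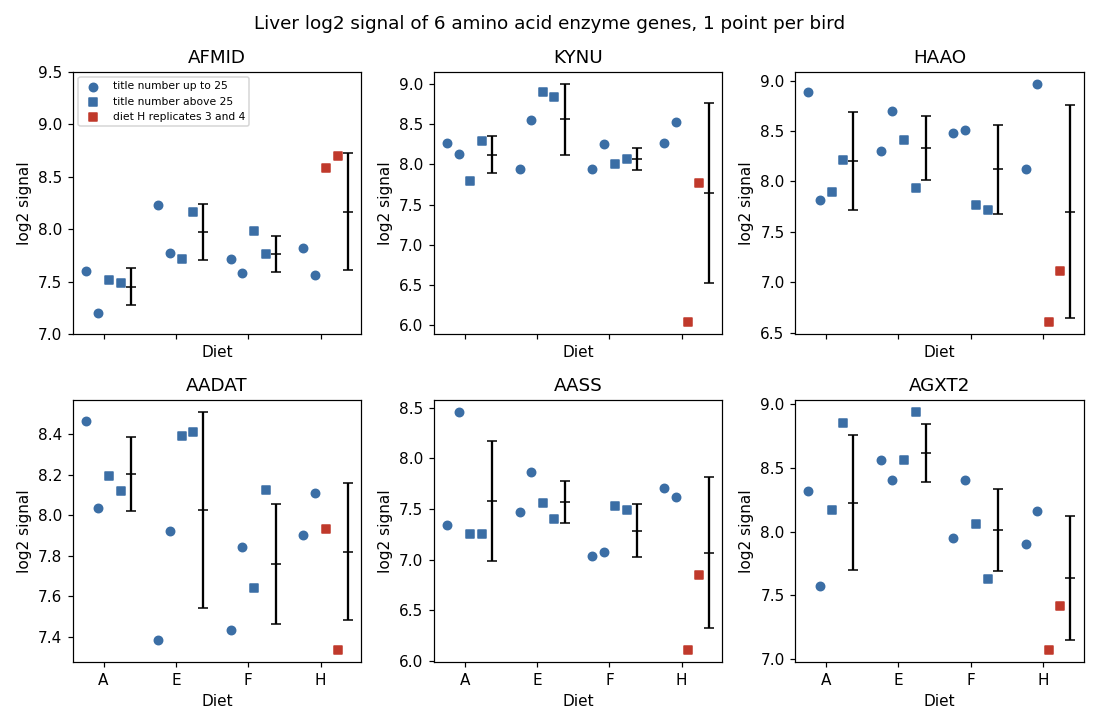
Log2 signal (y axis) of the 6 genes by diet (x axis), with 1 point per bird in replicate order, circles for title numbers up to 25, squares for those above 25, and diet H replicates 3 and 4 in red. Horizontal ticks with bars are the mean and SD of 4 birds. The red points are the lowest of the 16 for KYNU, HAAO, AASS and AGXT2 and the highest for AFMID, and the 4 diet E points of AGXT2 lie above all points of diets F and H.

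KYNU, the kynureninase gene, varied little between birds of diets A and F and most in diet H. Its signals were 8.26, 8.13, 7.79 and 8.29 in diet A, 7.94, 8.55, 8.90 and 8.84 in diet E and 7.94, 8.26, 8.01 and 8.06 in diet F. In diet H they were 8.26, 8.53, 6.04 and 7.77. Of the 4 diet E birds, 3 lay above all diet A and all diet F birds. The share of all features with 3 of 4 birds in that position was not computed. By p, diet E minus A of KYNU ranked 4110th of all features and diet F minus E 2063rd. Diet H replicate 3 lay far under every other bird. Diet means were 8.56 ± 0.44 (SD, n = 4) in E, 8.12 ± 0.23 in A, 8.07 ± 0.14 in F and 7.65 ± 1.12 in H. Diet H minus E was -0.91 ± 0.39 (SE, -1.73 to -0.09, adjusted p = 0.942), diet E minus A was 0.44 ± 0.39 (-0.39 to 1.26, adjusted p = 1) and diet F minus E was -0.49 ± 0.39 (-1.32 to 0.33, adjusted p = 1). Diet H minus A was -0.47 ± 0.39 (-1.30 to 0.35, adjusted p = 0.575), and its sign rested on 1 array: without diet H replicate 3 it was 0.06, and without replicates 3 and 4 it was 0.27. Diet H minus F likewise went from -0.42 to 0.12 without replicate 3. Diet H minus E was -0.17 without replicates 3 and 4. In the upper title block KYNU had an E minus A difference of 0.83, against 0.05 in the lower block.

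HAAO, the dioxygenase gene, showed no separation between diets. Diet means were 8.20 ± 0.49 (SD, n = 4) in A, 8.33 ± 0.32 in E, 8.12 ± 0.44 in F and 7.70 ± 1.05 in H. The widest of the 6 differences was H minus E at -0.63 ± 0.40 (SE, -1.49 to 0.22, adjusted p = 0.942), which was 0.21 without diet H replicates 3 and 4. Diet H minus A and H minus F were -0.50 and -0.42 with all birds, and 0.34 and 0.43 without these 2. With only diet H replicate 2 left out, which had the highest HAAO signal of the 16 birds, these differences were -0.92 and -0.84. Between diets A, E and F the differences lay from -0.22 to 0.13, with standard errors of 0.40. The difference of F minus A was -0.08, and it was 0.14 without diet A replicate 1.

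AADAT, the kynurenine and aminoadipate aminotransferase gene, had its highest mean in diet A. Means were 8.20 ± 0.18 (SD, n = 4) in A, 8.03 ± 0.48 in E, 7.76 ± 0.30 in F and 7.82 ± 0.34 in H. The diet A birds read 8.46, 8.04, 8.19 and 8.12 and the diet F birds 7.43, 7.84, 7.64 and 8.13. Of the 4 diet F birds, 3 lay below all diet A birds, and the one at 8.13 overlapped with them. The share of all features with 3 of 4 birds in that position was not computed. By p, diet F minus A of AADAT ranked 619th of all features. Diet F minus A was -0.44 ± 0.23 (SE, -0.94 to 0.05, adjusted p = 0.993) and was below 0 in both title blocks, at -0.61 and -0.27. Diet H minus A was -0.38 ± 0.23 (-0.88 to 0.11, adjusted p = 0.521), and -0.20 without diet H replicates 3 and 4. Diet E minus A was -0.18 ± 0.23, with -0.60 in the lower and 0.24 in the upper block, and without diet E replicate 1 it was 0.04.

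AASS, the lysine-degrading enzyme gene, had means of 7.58 ± 0.59 (SD, n = 4) in A, 7.57 ± 0.21 in E, 7.28 ± 0.26 in F and 7.07 ± 0.75 in H. Diets A and E differed by -0.005 ± 0.32 (SE, -0.69 to 0.68). In diet A replicate 2 read 8.46 and the other 3 birds 7.25 to 7.34, and without that bird E minus A was 0.29 and F minus A was 0.003 in place of -0.29. Diet H minus A was -0.51 ± 0.32 (-1.19 to 0.18, adjusted p = 0.526), diet H minus E -0.50 ± 0.32 (-1.19 to 0.18, adjusted p = 0.942) and diet H minus F -0.22 ± 0.32 (-0.90 to 0.47, adjusted p = 0.971). Without diet H replicates 3 and 4 these differences were 0.08, 0.09 and 0.38.

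**Figure D2:**
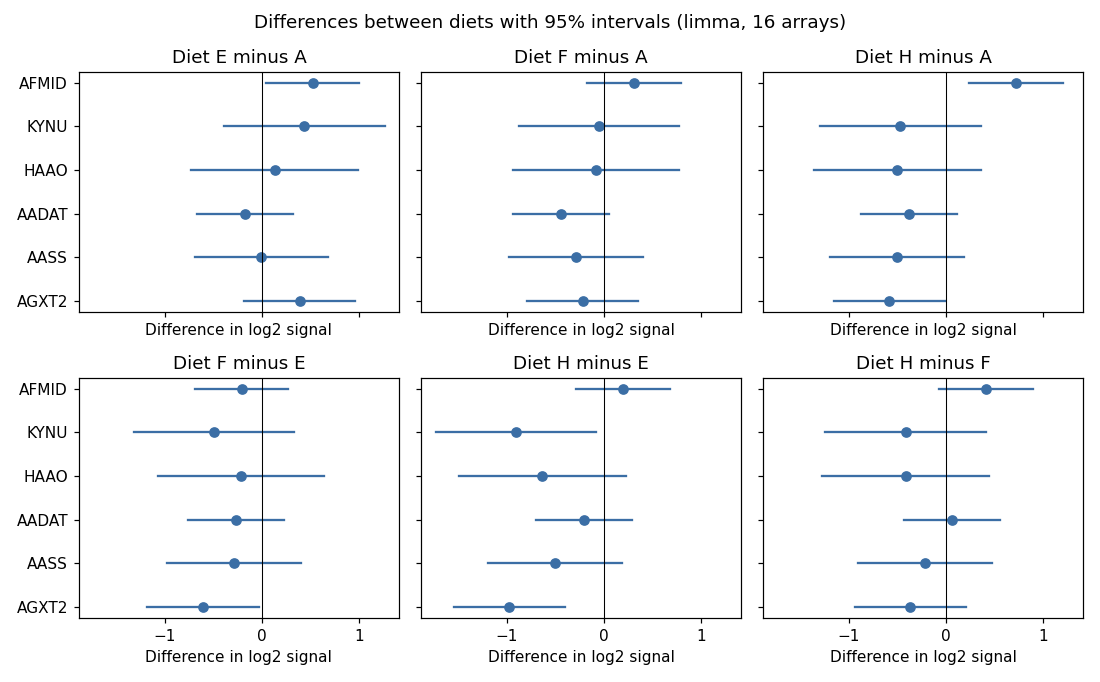
Differences in log2 signal (x axis) between diets for the 6 genes (y axis), as points with 95% intervals from limma over 16 arrays, 1 panel per comparison. Intervals that do not reach 0 are those of AFMID in E minus A and H minus A, KYNU in H minus E, and AGXT2 in H minus A, F minus E and H minus E; none of these passed adjustment.

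Across comparisons, all 6 genes had a lower mean in diet F than in diet E (median difference -0.28) and 5 of 6 a lower mean in diet H than in diet E (median -0.57). In diet E minus A, 4 of 6 were higher (median 0.26), in F minus A 5 of 6 were lower (median -0.15), and in H minus A 5 of 6 were lower (median -0.49). Over all 11528 genes the medians lay between -0.02 and 0.01. The counts with diet H turned or shrank without its replicates 3 and 4. In H minus A, 4 of 6 genes were then higher (median 0.16), in H minus E 4 of 6 were lower (median -0.09), and in H minus F 5 of 6 were higher (median 0.29, against -0.29 with all birds). The comparisons share birds of a diet, so these counts are not separate observations.

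The 2 arrays that stood apart were extreme for 5 of the 6 genes. Diet H replicates 3 and 4 both lay below the other 14 birds for KYNU, HAAO, AASS and AGXT2, and both above them for AFMID. Of all features, 15.2% had these 2 arrays below the other 14 and 15.7% had them above, so that such a position was common on the array. HAAO read 6.61 and 7.11 in these birds, against 7.72 to 8.97 in the other 14, which is 3.16-fold and 2.23-fold below the mean of the 14. KYNU read 6.04 and 7.77 against 7.79 to 8.90, 4.68-fold and 1.41-fold below that mean. AASS was 2.63-fold and 1.58-fold below, AGXT2 2.26-fold and 1.78-fold below, and AFMID 1.82-fold and 1.97-fold above. AADAT was the exception, with 7.93 in replicate 3 and 7.34 in replicate 4, against 7.38 to 8.46 in the others. In these arrays the median deviation of hepatocyte markers was -0.20 and -0.18, outside the range of -0.10 to 0.12 in the other 14. Single hepatocyte markers went both ways. ALB read 13.67 and 13.69 (mean of 16 birds 13.87) and FGB 12.46 and 12.56 (13.02). APOA1 read 13.77 and 13.68 (13.52) and TTR 13.56 and 13.62 (13.55). The median deviation of 5 macrophage and Kupffer cell markers was -0.46 and -0.39, outside -0.15 to 0.23. The summed signal of the 9 hepatocyte markers, on the log2 scale, was 16.30 and 16.36 in these arrays and ranged over 16.50 to 16.60 in diet A, 16.44 to 16.59 in diet E and 16.41 to 16.59 in diet F. The summed signal of the 5 macrophage markers did not follow their median deviation: it was 13.65 and 13.63 on the log2 scale, within 13.29 to 13.78 over the other diets. Markers of stellate cells and fibroblasts deviated by 0.50 and 0.76 (-0.65 to 0.67 in the others), and erythroid markers by 0.19 and 0.55 (-0.65 to 0.75). The part of these values in the position of the 6 genes was not tested.

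Spread between birds was wide for most of the 6 genes. Over 16 birds the SD was 0.64 for KYNU, 0.62 for HAAO, 0.52 for AGXT2, 0.50 for AASS, 0.40 for AFMID and 0.36 for AADAT, against a median of 0.29 over all genes. The SD of KYNU exceeded that of 97.4% of genes, and that of HAAO exceeded 97.0%. Without diet H replicates 3 and 4 the SD of KYNU was 0.33 (above 80.2% of genes), while HAAO and AGXT2 stayed wide at 0.41 each (above 91.3% and 91.1%).

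Birds with a high signal of one gene tended to have a high signal of some others, over all 16 birds. Of the 15 pairs of genes, 6 passed a two-sided permutation test of Pearson's r with adjustment over the 15 pairs. The test took birds of all diets and title blocks as exchangeable. KYNU and AGXT2 had r = 0.73 (p = 0.00055, adjusted 0.00825), KYNU and HAAO 0.73 (p = 0.00232, adjusted 0.0174), KYNU and AASS 0.69 (p = 0.0121, adjusted 0.0302) and HAAO and AGXT2 0.66 (p = 0.00508, adjusted 0.024). AFMID ran the other way, with r = -0.64 to HAAO (p = 0.00801, adjusted 0.024) and -0.64 to AASS (p = 0.0077, adjusted 0.024). Such values of r were common on the array for HAAO and AFMID. Of all other genes, 45.7% had an r to HAAO at least as far from 0 as that of AFMID, 42.6% as that of AGXT2, and 42.9% had an r to AFMID at least as far from 0 as that of AASS. For KYNU the shares were smaller, 3.20% for the value of AGXT2, 2.98% for HAAO and 6.91% for AASS. Counted from the other gene of each pair the shares differed. For r to HAAO the share was 30.8% at the value of KYNU, and for r to AFMID 43.1% at that of HAAO. For r to AGXT2 it was 1.31% at the value of KYNU and 4.53% at that of HAAO. For r to AASS it was 2.36% at the value of KYNU and 5.45% at that of AFMID. By Spearman's rho 0 of 15 pairs passed adjustment, with 0.67 for KYNU and AGXT2 (permutation p = 0.00593, adjusted 0.089), 0.61 for KYNU and HAAO (p = 0.0148, adjusted 0.0936), 0.57 for KYNU and AASS (p = 0.0219, adjusted 0.0936), 0.56 for HAAO and AGXT2 (p = 0.0273, adjusted 0.0936), -0.42 for HAAO and AFMID (p = 0.107, adjusted 0.24) and -0.23 for AFMID and AASS (p = 0.384, adjusted 0.524).

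These relations rested largely on the 2 arrays that stood apart. Over the other 14 birds 0 of 15 pairs passed the permutation test, by r or by rho. KYNU and AGXT2 then had r = 0.53 (p = 0.0538, adjusted 0.404), KYNU and HAAO 0.33, KYNU and AASS 0.16, HAAO and AGXT2 0.29, HAAO and AFMID -0.12 and AFMID and AASS -0.27. KYNU and AADAT, which had r = 0.35 over 16 birds, had 0.58 over 14 (p = 0.0304, adjusted 0.404), the highest of the 15 there. With the 2 birds farthest from the median of the first gene left out, r was 0.59 for KYNU and AGXT2, 0.48 for KYNU and HAAO and 0.31 for KYNU and AASS. For the pairs named with HAAO or AFMID first, these 2 birds were diet H replicates 3 and 4, so r was that of the 14 birds. On deviations from the diet means over all 16 birds, r was 0.61 for KYNU and AGXT2 and 0.685 for KYNU and HAAO. It was 0.64 for KYNU and AASS, 0.61 for HAAO and AGXT2, -0.725 for HAAO and AFMID and -0.68 for AFMID and AASS. The r values on deviations were not tested. Within the lower title block of 8 birds 0 pairs passed the exact permutation test, with r = 0.16 for KYNU and AGXT2, 0.54 for KYNU and HAAO, 0.25 for KYNU and AASS, 0.60 for HAAO and AGXT2, 0.12 for HAAO and AFMID and -0.42 for AFMID and AASS. Within the upper block, which holds the 2 arrays, 6 pairs passed, with r = 0.82, 0.88, 0.90, 0.87 and -0.83 for the first 5 of these and 0.88 for HAAO and AASS, while AFMID and AASS had -0.69 there.

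**Figure D3:**
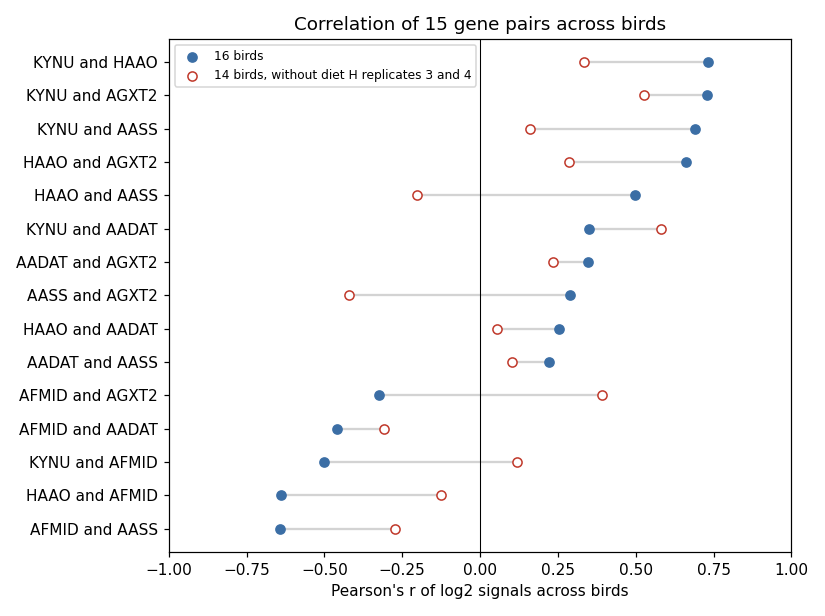
Pearson's r of log2 signals across birds (x axis) for the 15 pairs of the 6 genes (y axis), over all 16 birds (filled) and over 14 birds without diet H replicates 3 and 4 (open). Most open points lie nearer to 0 than the filled ones; KYNU and AADAT moved from 0.35 to 0.58.

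Genes with placeholder names (LOC, open reading frame and KIAA names) were left out of the search for likeness. Set against the other genes with 1 symbol, each member's pattern over the 16 birds was most like the following, named by Pearson's r with no test. For KYNU they were ALDH7A1 (0.89), an aldehyde dehydrogenase of the later lysine pathway, HIBADH (0.88), an enzyme of valine breakdown, and RPRD1B (0.88). For HAAO they were CISD1 (0.95), an iron-sulfur protein of the outer mitochondrial membrane, TSTD1 (0.94) and SNX5 (0.94), a sorting nexin. For AFMID they were P4HTM (0.96), a transmembrane prolyl hydroxylase, KDELR3 (0.93), a receptor that returns proteins to the endoplasmic reticulum, and PIGS (0.93). For AADAT they were CLDN12 (0.76), a claudin, MON2 (0.73) and SLC26A8 (0.71), for AASS RNF2 (0.86), a Polycomb ubiquitin ligase, NAB1 (0.85) and XDH (0.83), xanthine dehydrogenase, and for AGXT2 TOB1 (0.87), SLC16A12 (0.86) and the nuclear receptor gene NR2F2 (0.84). Over the 14 birds these r values ran from 0.55 for KYNU and RPRD1B to 0.89 for AFMID and KDELR3, and that of KYNU and ALDH7A1 was 0.78. All genes were read on the same arrays. Their r with the score of the first principal component was -0.87 for HAAO, 0.84 for AFMID, -0.64 for KYNU, -0.55 for AASS and AGXT2, and -0.39 for AADAT. Over the 14 birds it was -0.72 for HAAO and 0.61 for AFMID, and between -0.32 and -0.06 for the other 4.

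HAAO had a lower mean in the upper title block in each of the 4 diets. In the lower block its signals were 8.89 and 7.81 in diet A, 8.30 and 8.70 in diet E, 8.48 and 8.51 in diet F and 8.12 and 8.97 in diet H. In the upper block they were 7.90 and 8.21 in diet A, 8.41 and 7.93 in diet E, 7.76 and 7.72 in diet F and 6.61 and 7.11 in diet H. The upper minus lower difference was -0.30 in A, -0.33 in E, -0.76 in F and -1.69 in H, and 4 of the 8 upper birds lay below all lower birds. Over all features, 0.0433% had all 8 upper birds below all 8 lower birds, and HAAO was not among them. The share of features with 4 of 8 upper birds below was not computed, nor was the share with a lower upper-block mean in all 4 diets. By p in limma HAAO ranked 952nd of all features in the comparison of the blocks.

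With the diets in the model, HAAO differed by -0.77 ± 0.22 (SE, -1.23 to -0.30) between upper and lower block at adjusted p = 0.065 in limma, where the smallest adjusted p of any feature was 0.0615. This comparison called 0 features (0.00%), with 6566 (31.6%) at an unadjusted p under 0.05. The adjusted p of HAAO fell under 0.05 when any of 4 birds was left out, to 0.017 without diet E replicate 1, 0.0456 without diet A replicate 4, 0.0474 without diet E replicate 3 and 0.0499 without diet A replicate 2. The count of called features then ran from 237 without diet A replicate 2 to 6427 without diet E replicate 1. With any other single bird left out, the adjusted p of HAAO stayed above 0.05. It then ran from 0.0792 without diet E replicate 4 to 0.145 without diet H replicate 4. With array quality weights in limma it was 0.126. Without diet H replicates 3 and 4, which are the diet H birds of the upper block, the HAAO difference was -0.46 (adjusted p = 0.490). AFMID differed by 0.30 ± 0.14 (-0.001 to 0.61, adjusted p = 0.16) and AASS by -0.39 ± 0.21 (-0.84 to 0.06, adjusted p = 0.206), which were 0.09 and -0.13 without these 2 arrays. Without diet E replicate 1 AFMID differed by 0.38 at adjusted p = 0.0479. KYNU, AADAT and AGXT2 differed by -0.27, 0.13 and -0.07. What the title numbers stand for is not stated, so the blocks are described only as numbers.

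**Figure D4:**
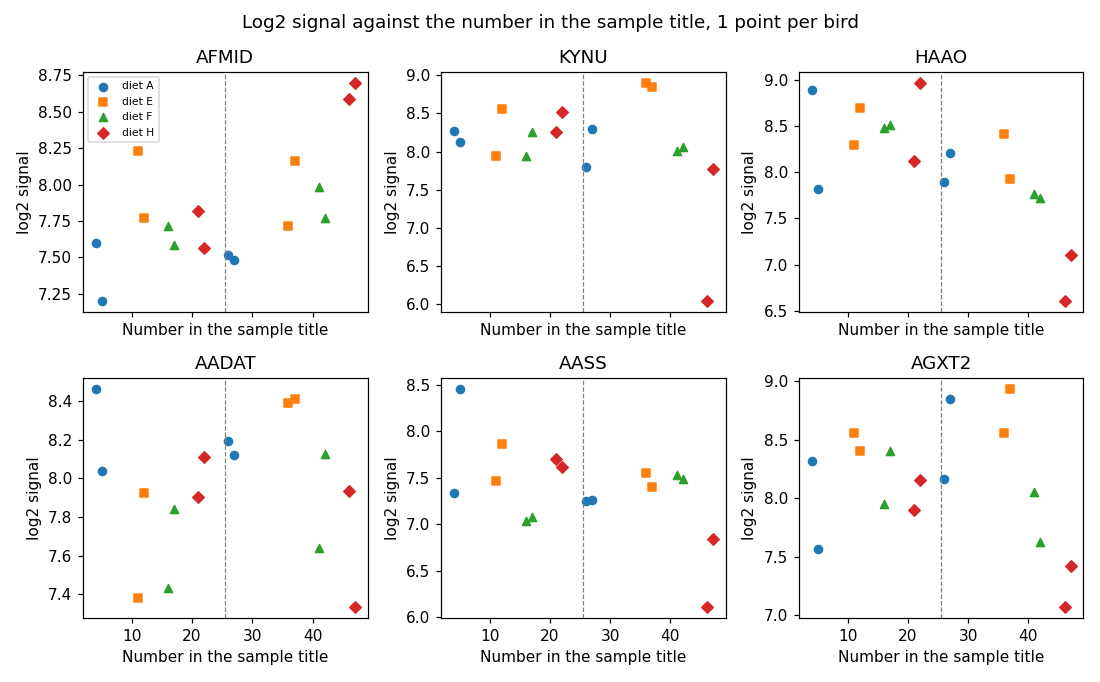
Log2 signal (y axis) of the 6 genes against the number in the sample title (x axis), 1 point per bird with a symbol for its diet, and a dashed line between numbers up to 25 and above. For HAAO the birds with numbers above 25 average 7.71 and the others 8.47.

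Other genes of these pathways were taken from 6 lists by name, of which 60 of 85 genes had a feature. None passed adjustment in any diet comparison. Of the kynurenine and NAD genes 10 of 18 were measured: in diet H minus A, 3 were higher and 7 lower with a median of -0.20, and in diet E minus A, 4 were higher and 6 lower with a median of -0.02. TDO2, QPRT and KYAT1 of this list had no feature. IDO2, an enzyme of the ring-opening first step, averaged 6.87 ± 0.32 (SD, n = 4) in A, 7.09 ± 0.50 in E, 7.02 ± 0.41 in F and 7.22 ± 0.80 in H. In diet H replicates 3 and 4 IDO2 read 7.59 and 8.18, above the other 14 at 6.36 to 7.45. KMO, which hydroxylates kynurenine ahead of KYNU, averaged 10.4 ± 0.11 in A, 10.4 ± 0.13 in E, 10.4 ± 0.19 in F and 10.3 ± 0.35 in H. ACMSD, which diverts the product of HAAO away from quinolinate, had means of 7.12 in A, 7.44 in E, 6.91 in F and 6.87 in H, and H minus E was -0.56 ± 0.26 (SE, adjusted p = 0.942). KYAT3, another kynurenine aminotransferase, differed by -0.69 ± 0.28 in H minus A (adjusted p = 0.521), and GOT2, the mitochondrial aspartate aminotransferase, by 0.41 ± 0.22 (adjusted p = 0.521). KYAT3 read 6.09 in diet H replicate 3, against 7.05 to 7.95 in the 14 birds without replicates 3 and 4. GOT2 read 10.702 and 11.086 in replicates 3 and 4, above the other 14, of which the highest read 10.699. Both replicates lay above the other 14 in 15.7% of all features. Without these 2 arrays H minus A was -0.34 for KYAT3 and 0.008 for GOT2 (adjusted p = 1 for both), and H minus E was -0.35 for ACMSD. The list then had 1 gene higher and 9 lower in H minus A, with a median of -0.20. IDO2 and KMO averaged 6.57 and 10.08 in the 2 remaining diet H birds.

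Of the lysine genes 18 of 20 were measured, with medians from -0.11 to 0.05 over the 6 diet comparisons and 0 called. ALDH7A1, which acts on aminoadipate semialdehyde after AASS, averaged 10.8 ± 0.15 (SD, n = 4) in A, 10.9 ± 0.08 in E, 10.7 ± 0.07 in F and 10.6 ± 0.25 in H. Diet H replicates 3 and 4 read 10.32 and 10.58, below the other 14 at 10.64 to 11.04. Both lay below the other 14 in 15.2% of all features. AASDHPPT, which attaches the phosphopantetheine group to carrier proteins, differed by -0.43 ± 0.20 in H minus A (SE, adjusted p = 0.521), and DHTKD1, a dehydrogenase of oxoadipate, by -0.09 ± 0.16. GCDH, glutaryl-CoA dehydrogenase, read 7.42 and 8.10 in diet H replicates 3 and 4, above the other 14 at 6.73 to 7.41. Both arrays lay above the other 14 in 15.7% of all features. Without these 2 arrays the H minus A difference was -0.16 for AASDHPPT and -0.05 for DHTKD1, and the lysine medians of the comparisons with diet H lay from -0.08 to -0.007.

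Of the aminotransferase genes 15 of 20 were measured, and in diet H minus E 3 were higher and 12 lower, with a median of -0.17 beside -0.02 for all genes and 0 called. AGXT, the other alanine-glyoxylate aminotransferase gene, had means of 8.52 in A, 8.74 in E, 8.53 in F and 8.77 in H, with an H minus E difference of 0.03 ± 0.28 (SE, adjusted p = 0.989) where AGXT2 had -0.98. Of the genes around AGXT2 substrates and glyoxylate 7 of 11 were measured, with a median of -0.11 in diet H minus E, and UPB1, which makes beta-alanine and beta-aminoisobutyrate, differed by -0.09. For other tryptophan genes (10 of 15 measured) the diet medians lay between -0.14 and 0.09, and for vitamin B6 cofactor genes (3 of 5 measured) between -0.04 and 0.18. Without diet H replicates 3 and 4, diet H minus E had 5 aminotransferase genes higher and 10 lower (median -0.11). AGXT then differed by -0.41, beside -0.58 for AGXT2, so both were lower in diet H. UPB1 differed by 0.08, and the median around AGXT2 substrates was 0.08. In the comparisons with diet H the medians were then -0.13 to 0.04 for other tryptophan genes and -0.12 to -0.08 for vitamin B6 genes. Across the 60 measured pathway genes, diet H replicates 3 and 4 both lay below the other 14 birds for 14 and above them for 11. Over all features, 15.2% had both arrays below the other 14 birds and 15.7% had both above, so such positions were common on the array. Whether the pathway counts differ from these shares was not tested.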

How the data were processed

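Total RNA of 16 livers was hybridised to 1-colour Affymetrix arrays, per the labels' protocols. The authors' deposited signals were taken as log2 values, since they run from 0.93 to 14.63. Per the submitters' processing notes GCOS 1.1.1 was used. The sources used here give no background correction, summarization, normalization or genome build, and no coordinates are printed. Of 20804 features, 12300 have 1 symbol, 256 several and 8248 none here. Entrez IDs of 11727 matched the RefSeq gene table of assembly GRCg7b, with 0 symbols changed. Diet means were modelled over the 16 arrays with limma 3.58.1 under R 4.3.3, with Benjamini-Hochberg adjustment over all features. The title block comparison added 1 term to it. Precision is limited by the number of arrays: the median SE of a difference between diets was 0.216. Errors are SD over birds or SE from limma. Permutation tests of correlations used 100000 resamples (16 and 14 birds) or every pairing (8 birds). The limma fit was tested on simulated data for diet E minus A only, with independent errors and no arrays that stood apart. The block comparison and the permutation tests were not simulated. The labels give no separate cultures or pens, so p-values measure only the spread between these birds. The 6 genes, lists and settings were chosen with earlier results of these data known. The text names the 6 genes, pathway genes fixed by name (11 of 17 measured) and for each gene the 3 most alike.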

Additional observations from a re-analysis of the deposited data

Results flagged for a closer look

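AASS in diet A held 1 bird far from the others: replicate 2 read 8.46, and the next highest of the 4 birds 7.34, a gap of 0.926 of the group's whole range, above Dixon's 95% critical value for 4 samples. Of 24 groups looked at (6 genes in 4 diets) it was the only one past the limit, and chance flags about 1 in 20. The same bird had the lowest of the 16 signals for AFMID, 7.20. It also had the lowest of diet A for AGXT2, 7.57, HAAO, 7.81, and AADAT, 8.04.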

How the results depend on the processing

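No feature was called between diets under any alternative except array quality weights, which called 1 feature for diet E minus A. Of 540 recomputed diet differences of the 6 genes, 511 kept their direction, 29 did not, and 0 passed adjustment. Many of these could not change. Leaving out dim features, other variance moderation in limma, fitting only the compared diets and adding the title block leave a difference of diet means as it is. Leaving out diet H replicates 3 and 4 cannot move a difference without diet H. The count of 511 is therefore no measure of stability. Without diet H replicates 3 and 4, diet H minus A was 0.27 for KYNU, 0.34 for HAAO and 0.084 for AASS. Diet H minus E was then 0.21 for HAAO, -0.28 for AFMID and 0.089 for AASS, and H minus F 0.32 for KYNU, 0.43 for HAAO, -0.071 for AFMID, 0.38 for AASS and 0.022 for AGXT2. Without them the block differences of KYNU and AGXT2 were 0.14 and 0.17. Quantile normalization gave 0.032 for AASS in E minus A. Array quality weights gave 0.046 and 0.0093 for HAAO in F minus A and F minus E, and 0.12 for AGXT2 between blocks. With 1 bird left out at a time, F minus A ran from -0.22 to 0.14 for HAAO, -0.40 to 0.0029 for AASS and -0.16 to 0.0041 for KYNU, and E minus A from -0.11 to 0.29 for AASS and -0.31 to 0.037 for AADAT. H minus A ran from -0.76 to 0.064 for KYNU, and H minus F from -0.71 to 0.12 for KYNU, -0.43 to 0.10 for AASS and -0.048 to 0.22 for AADAT. The block difference of AGXT2 ran from -0.20 to 0.024, and the features called between blocks from 0 to 6427, with 776 when dim features were left out. The cause was not tested.

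Pearson's r without diet H replicates 3 and 4 was 0.12 for KYNU and AFMID, -0.20 for HAAO and AASS, 0.39 for AFMID and AGXT2 and -0.42 for AASS and AGXT2. For HAAO and AASS and for AFMID and AGXT2 the 2 farthest birds were these same arrays, so leaving out the farthest birds is no separate setting. Within the lower block it was 0.12 for HAAO and AFMID, -0.52 for HAAO and AASS, 0.67 for AFMID and AGXT2, -0.14 for AADAT and AGXT2 and -0.54 for AASS and AGXT2. The mean of all features of a gene gave no separate value, since each gene had 1 feature. No paired analysis was possible because the labels give no replicate numbers that diets share. How far signals lie above background was not known, which limits what low signals can show. Counts, medians and pathway genes without diet H replicates 3 and 4 were added after seeing the data.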
